A study of Mus musculus with 3 samples.

Results

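Among 4683 single epithelial cells of embryonic mouse back skin, 894 carried much transcript of Sostdc1 (ectodin or Wise, a secreted inhibitor of Wnt and Bmp signalling) and little transcript of the genes of the hair placode centre. Such cells are proposed to lie at the placode edge. Members were chosen by the measured levels of 9 genes. A cell was a member when, per 10000 of its unique molecular identifiers (UMIs, each marking 1 captured RNA molecule), it held at least 8 of Sostdc1 (ENSMUSG00000036169.6, chromosome 12, 36314139 to 36318452 on the plus strand of GRCm38, protein coding). The summed level of the placode genes Dkk4, Edar, Fgf20, Bmp2 and Ltb had to be under 2. The summed level of the genes of the differentiating layers, Krt1, Krt10 and Krtdap, had to be under 5, or under 20 in the total epithelium library. These cells were set against 1208 placode cells (placode sum at least 4) and 1004 other cells (placode sum under 2, Sostdc1 under 4, and the same limit on the differentiation genes).

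The epithelium came from wild-type C57BL/6JOlaHsd embryos at E14.5, the embryonic day when the first hair placodes form, and all groups shared this strain, age and genotype. Dispase II parted the epithelium from the dermis, the epithelia of several littermates were pooled per sample, TrypLE freed single cells, and an antibody marked MAdCAM-1, which placode cells carry on their surface. Live cells were sorted either without this gate (1 total epithelium library) or through a MAdCAM-1-positive gate (2 placode-enriched libraries, biological replicates per the series design), and made into 10x Genomics 3' libraries. Values below are given in the order total epithelium, placode-enriched 1, placode-enriched 2.

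Hair placodes are local thickenings of the epidermis in which Wnt/beta-catenin, ectodysplasin (Eda, acting through its receptor Edar and NF-kB) and Fgf signals are active, while Bmp signals and secreted inhibitors limit their size and spacing. Sostdc1 binds the Wnt co-receptors Lrp5 and Lrp6, the related receptor Lrp4 and several Bmp ligands, and its transcript is known from in situ hybridisation as a ring around tooth and hair placodes. Sonic hedgehog (Shh) made in the placode acts on neighbouring epithelium and on the dermis, where it is read out by Ptch1 and Gli1.

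The members numbered 233, 342 and 319 cells, which was 14.6% (95% exact binomial interval 12.9 to 16.4), 22.6% (20.5 to 24.8) and 20.3% (18.3 to 22.4) of the 1601, 1511 and 1571 cells. The sort and the limit on differentiation genes set these shares, so they were not compared between libraries. Placode cells made up 6.75%, 35.7% and 35.6%, and other cells 36.1%, 11.7% and 15.8%. The median member held 20495, 21702 and 25421 UMIs, beside 19258, 19953 and 20802 in placode cells and 22156, 25599 and 26278 in other cells. Whole libraries held 34900788 to 38645840 UMIs and shared at most 2 cell barcodes with each other. Intervals cover counting error only.

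The genes of the rule describe the classes and were not tested. Sostdc1 had a median of 12.03, 13.1 and 12.1 UMIs per 10000 in the members, and reached 34.2, 41.2 and 41.5. Summed over each class and expressed per 1000000 UMIs (CPM), Sostdc1 stood at 1375, 1409 and 1322 CPM in the members, at 159, 218 and 165 CPM in placode cells and at 190.4, 207 and 207 CPM in other cells. Dkk4, a secreted Wnt inhibitor of the placode, stood at 6.24, 17.5 and 12.2 CPM in the members and at 737, 712 and 596 CPM in placode cells. Edar, the ectodysplasin receptor, was at 11.7, 28.2 and 21.9 CPM in the members, 76.3, 99.2 and 96.3 CPM in placode cells and 4.37, 13.0 and 14.6 CPM in other cells. No UMI of the 5 placode genes was seen in 52.8%, 19.3% and 20.1% of the members. Krtdap, a gene of the first differentiating layer, stood at 442, 45.6 and 28.5 CPM in the members. In placode cells, which had no limit on the differentiation genes, it stood at 407, 22.4 and 19.4 CPM. The total epithelium library thus held more Krtdap in both classes, and the part of its wider limit in the members was not tested.

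**Figure D1:**
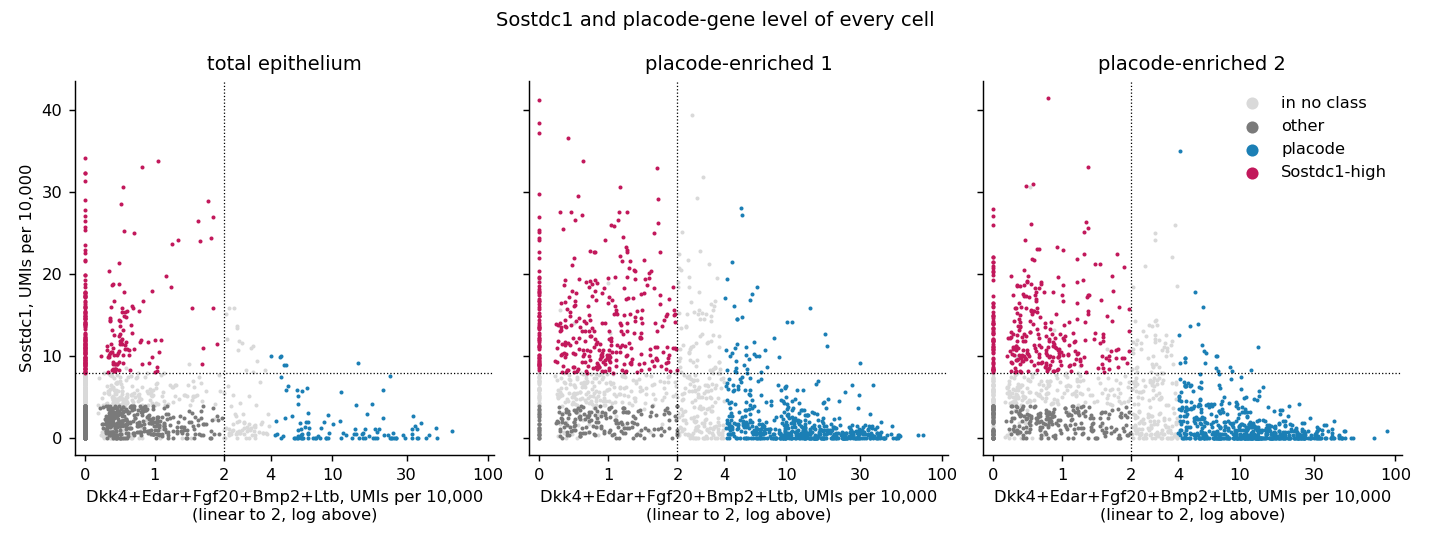
Each point is 1 cell of the library named above the panel. The x axis gives the summed level of Dkk4, Edar, Fgf20, Bmp2 and Ltb and the y axis that of Sostdc1, both as UMIs per 10000 (x linear to 2 and logarithmic above it); dotted lines mark the limits of 2 and 8. The 233, 342 and 319 Sostdc1-high cells form no separate island: Sostdc1 levels run without a gap across the limit of 8, and most cells with a high placode sum have little Sostdc1.

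Of the 2 further genes proposed to mark placode-edge cells, Tbx1 was highest in the members in every library, while Bdnf was higher in placode cells than in the members. Tbx1 (ENSMUSG00000009097.10, chromosome 16, 18580979 to 18590671, minus strand, protein coding), a T-box transcription factor known from hair follicle stem cells, gave 13, 49 and 46 UMIs in the members, 1, 5 and 7 in placode cells and 5, 4 and 3 in other cells. These correspond to 2.62, 6.31 and 5.56 CPM (95% Poisson intervals 1.39 to 4.48, 4.67 to 8.34 and 4.07 to 7.41), 0.441, 0.440 and 0.574 CPM and 0.371, 0.850 and 0.451 CPM. The values of the members thus lay above those of both classes, at a low level of detection. In total epithelium the Poisson interval of placode cells, 0.0112 to 2.46 CPM, overlapped that of the members. With each cell thinned to 5000 UMIs, a Tbx1 UMI was seen there in 1.29% of the members (95% exact binomial interval 0.266 to 3.72) and 0% of placode cells (0 to 3.36). Fold changes are log2 ± SE over the 3 libraries, and adjusted p is from edgeR's quasi-likelihood test with Benjamini-Hochberg adjustment over all 11667 genes tested. The Tbx1 difference was 3.39 ± 0.34 against placode cells (edgeR adjusted p = 1.61e-07) and 3.06 ± 0.35 against other cells (edgeR adjusted p = 9.6e-06).

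Bdnf (ENSMUSG00000048482.14, chromosome 2, 109674700 to 109727007, plus strand, protein coding), a neurotrophin of growing sensory axons, stood at 15.5, 63.9 and 72.1 CPM in the members, 66.2, 116 and 131 CPM in placode cells and 1.93, 26.1 and 27.4 CPM in other cells. The members thus lay between the other 2 classes in every library, with a difference of -1.02 ± 0.17 against placode cells (edgeR adjusted p = 0.000111) and 1.60 ± 0.24 against other cells (edgeR adjusted p = 0.000145). With DESeq2 these differences were -1.41 (adjusted p = 0.116) and 1.68 (adjusted p = 0.154). A Bdnf UMI was seen in 17.2%, 52.0% and 56.4% of the members, 50%, 74.8% and 81.1% of placode cells and 2.25%, 30.5% and 28.1% of other cells. Suprabasal cells (differentiation sum at least 50), which should lack Bdnf, gave 3.64%, 7.14% and 8.33% at median depths of 24356, 28191 and 35898 UMIs, over 247, 14 and 12 cells. With each cell thinned to 5000 UMIs, which all cells reached, the shares were 8.58%, 26.3% and 26.6% in the members and 25.9%, 40.6% and 46.1% in placode cells. They were 0.692%, 14.7% and 11.6% in other cells and 0% in the suprabasal cells, where the 95% exact binomial interval reaches up to 1.48%, 23.2% and 26.5%. Sostdc1 chose the members, so of the marker set only Tbx1 and Bdnf could go against the label, and Bdnf did. Position in the skin was not measured in these dissociated cells. They are called Sostdc1-high cells from here on.

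Bdnf was higher again in cells that had Sostdc1 above the limit but were kept out by their placode genes. Members with a placode sum of 1 to 2 (21, 140 and 81 cells) held 31.5, 101 and 88.6 CPM of Bdnf. Just outside, cells with at least 8 Sostdc1 and a sum of 2 to 4 (15, 68 and 50 cells) held 124, 149 and 169 CPM, and those with a sum of at least 4 (6, 42 and 22 cells) held 216, 179 and 179.5 CPM. At the Sostdc1 limit, Tbx1 stood at 3.06, 2.01 and 2.72 CPM just inside (8 to 9 per 10000) and at 0.909, 2.51 and 5.33 CPM just outside (7 to 8), with no common order across the libraries. The limit on the placode sum thus divides a range of Bdnf levels, and the limit on Sostdc1 falls inside a continuous range.

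Against placode cells, Sostdc1-high cells had more transcript of Gas1, Edn2 and the basal keratin Krt15, and far less of the placode's signalling genes such as Shh. The test covered 11667 genes, of which Sostdc1-high cells had 1705 at a higher (14.6%) and 1831 at a lower level (15.7%). Because the classes were drawn from counts of the same cells, this test asks which further genes vary with the genes of the rule. The counts fell to 1057 and 1136 without placode-enriched library 1, and to 896 and 1067 without placode-enriched library 2.

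Gas1, a membrane co-receptor for hedgehog ligands, was the gene with the largest rise among those with a mean of at least 20 CPM. It stood at 364, 306 and 235 CPM in Sostdc1-high cells, 30.4, 24.8 and 13 CPM in placode cells and 216, 205 and 172 CPM in other cells, a difference of 3.80 ± 0.09 against placode cells and 0.58 ± 0.06 against other cells. Edn2, an endothelin ligand, was at 23.4, 21.9 and 23.3 CPM against 2.21, 1.58 and 1.56 CPM in placode cells (3.70 ± 0.20) and 18.4, 10.4 and 11.7 CPM in other cells. Both genes were higher in Sostdc1-high cells than in every sum of the other classes of the same library. Further rises against placode cells were 3.59 ± 0.22 for Dlk2, a Delta-like membrane protein, 3.09 ± 0.16 for Pla2g7, which encodes a secreted phospholipase, and 2.76 ± 0.18 for Phlda2, an imprinted growth-restraining gene. Ndrg1, a stress-responsive cytoplasmic protein, rose by 2.58 ± 0.14, Anxa1 (annexin A1) by 2.45 ± 0.14 and Igfbp5, which binds insulin-like growth factors, by 2.40 ± 0.05. H60c, a ligand of the NKG2D receptor in skin, and Ackr3, a scavenging receptor for Cxcl12, completed the 10 with 2.39 ± 0.17 and 2.39 ± 0.12. Of these 10, Gas1, Edn2, Pla2g7, Igfbp5 and Ackr3 were also higher than in other cells in the test of both differences, whereas Dlk2, at 37.5, 13.8 and 13.1 CPM, was near the 43.4, 14 and 17.3 CPM of other cells.

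Among genes with a mean of at least 20 CPM in the higher class, the deepest drops against placode cells were in Sp5 and Shh. Sp5, a transcription factor and direct Wnt target, stood at 0.201, 0.902 and 1.21 CPM in Sostdc1-high cells, 24.7, 35.4 and 44.5 CPM in placode cells and 0.593, 1.70 and 1.05 CPM in other cells (-5.41 ± 0.19, edgeR adjusted p = 6.8e-14 against placode cells). Shh stood at 1.21, 3.99 and 3.14 CPM, 53.4, 96.9 and 97.9 CPM and 0.667, 11.3 and 8.57 CPM (-4.87 ± 0.23 against placode cells). For both genes the Sostdc1-high sums lay far under the placode sums and overlapped with those of other cells: the difference from other cells was -0.35 ± 0.44 for Sp5 (edgeR adjusted p = 0.761) and -1.05 ± 0.41 for Shh (edgeR adjusted p = 0.154), neither past the threshold. Lhx2, a LIM homeobox factor of follicle progenitors, fell, with a log2 difference of -4.13 ± 0.22, and Tgfb2, a ligand linked to placode downgrowth, with one of -3.88 ± 0.17. Ascl4 (a basic helix-loop-helix factor), Sprr2a3 (a small proline-rich protein), Cyfip2 (an actin regulator) and Abcc4 (an efflux transporter) fell, with log2 differences of -3.48 ± 0.19, -3.48 ± 0.38, -3.45 ± 0.16 and -3.33 ± 0.19. Scube1, a secreted and cell-surface protein, and Stx11, a membrane-fusion protein, fell, with log2 differences of -3.06 ± 0.18 and -2.87 ± 0.16.

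Of 30 placode genes that the rule did not use, 27 could be tested. In Sostdc1-high cells 23 of these were lower than in placode cells and 1 higher (Fst, follistatin), with a list median of -1.65 beside -0.01 over all genes. The list was chosen to mark placode cells, so its direction against them follows from that choice. Against other cells 6 of the 27 were higher (Wif1, Pthlh, Dusp6, Socs2, Edaradd and Smoc2) and 5 lower (Tgfb2, Wnt10b, Lef1, Fst and Kremen2), with a median of -0.16. Madcam1, the gene of the sorting antigen, stood at 1.21, 16 and 14.9 CPM in Sostdc1-high cells, 26.5, 69.5 and 60.9 CPM in placode cells and 1.85, 27.8 and 23 CPM in other cells, so in the gated libraries the Sostdc1-high cells were the class with the least Madcam1. Its difference was -2.22 ± 0.19 against placode cells and -0.61 ± 0.25 against other cells (edgeR adjusted p = 0.173).

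Against other cells of low Sostdc1, Sostdc1-high cells differed in fewer genes, with more transcript of several Fgf and hedgehog response genes and of factors of follicle precursors. Of 11667 genes 453 were higher (3.88%) and 443 lower (3.8%). Without placode-enriched library 1 the counts were 220 and 151, and without placode-enriched library 2 they were 203 and 166. Members of the other class in the total epithelium library also held melanoblast transcripts: the sum of 6 melanoblast genes was 136 CPM there, against 6.45, 0.773 and 1.81 CPM in Sostdc1-high cells, and the sum in the other class of the gated libraries was 21.9 and 0.601 CPM. With the cells that held at least 3 UMIs of Dct, Pmel, Mlana and Sox10 left out (21 other cells of the total epithelium library among them), 482 genes were higher and 450 lower.

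Among genes with a mean of at least 20 CPM in the higher class, Pla2g7 rose most, by 2.30 ± 0.14, from 7.41, 3.61 and 4.51 CPM in other cells to 38.7, 22.5 and 17.6 CPM. Eif4e3, a cap-binding protein, stood at 11.5, 38 and 36 CPM in Sostdc1-high cells and 1.26, 7.65 and 12.6 CPM in other cells (2.05 ± 0.21), while placode cells, at 19.4, 39 and 35.1 CPM, were close to the Sostdc1-high cells. Mycn, a proto-oncogene of proliferating progenitors, stood at 38.3, 34 and 38.3 CPM against 8.30, 11 and 9.47 CPM (1.96 ± 0.11). Ncam1, an adhesion molecule, was at 25.6, 68.4 and 74.1 CPM against 3.78, 17.6 and 29.9 CPM (1.79 ± 0.18). In all 4 genes every Sostdc1-high sum was above the other-cell sum of its own library. Ptch1 (1.72 ± 0.10), Rnf152 (a ubiquitin ligase, 1.68 ± 0.20), Wif1 (a secreted Wnt inhibitor, 1.65 ± 0.24), Bdnf (1.60 ± 0.24), Arhgef3 (1.54 ± 0.12) and Trp73 (a p53-family factor, 1.48 ± 0.13) completed the 10. The Wif1 call did not hold with DESeq2 (1.59, adjusted p = 0.0569).

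Among the 10 deepest drops against other cells by the same limit on CPM, Pcsk2, a prohormone-cleaving protease, stood at 9.67, 3.48 and 3.38 CPM in Sostdc1-high cells, 45, 9.07 and 6.15 CPM in placode cells and 54.8, 55.4 and 32.3 CPM in other cells (-3.14 ± 0.31 against other cells). Wnt16, a Wnt ligand of the epidermis, was at 14.1, 3.73 and 4.95 CPM, 28.2, 8.89 and 11.7 CPM and 46.9, 37.4 and 27.1 CPM, lower than in both classes (-2.36 ± 0.20 against other cells and -1.04 ± 0.24 against placode cells). Ripply3, a repressor that partners T-box factors including Tbx1, was at 11.5, 13.9 and 11.8 CPM, 35.3, 35 and 28.7 CPM and 27.9, 37.2 and 29.8 CPM (-1.35 ± 0.10 against other cells). Its Sostdc1-high sums lay under every sum of the other 2 classes. Another 3 drops were in genes of epidermal differentiation or its junctions, namely Zfp750 (-2.69 ± 0.31), Pvrl4 (-2.10 ± 0.23) and Grhl3 (-1.49 ± 0.19). With the cells that held at least 2 UMIs of Zfp750, Notch3 and Rhov left out (64, 34 and 44 other cells, and 11, 1 and 6 Sostdc1-high cells), the values of Pvrl4 and Grhl3, which did not choose those cells, became -0.01 and 0.12. Zfp750 is a gene of that filter, so its value there bears on nothing. Gadd45g (a growth-arrest gene), Col8a1 (a basement-membrane collagen) and Alcam (an adhesion molecule) fell, with log2 differences of -1.30 ± 0.21, -1.24 ± 0.15 and -1.19 ± 0.17; Alcam stood at -0.33 (edgeR adjusted p = 0.17) in that setting, and Gadd45g was not called without placode-enriched library 2 (edgeR adjusted p = 0.0505).

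A test of whether Sostdc1-high cells stood apart from placode and other cells in the same direction found 162 genes higher (1.39%) and 93 lower (0.797%). The test takes, per gene, the larger p of both differences where their signs match. Without placode-enriched library 1 the counts were 55 and 36, and without placode-enriched library 2 they were 41 and 22. Under all 17 alternative settings that kept the library as a block, 11 of 20 genes kept their call, the 20 being those with the largest smaller difference among genes with a mean of at least 20 CPM in the higher class. These were Pla2g7, Calm4, Cib2, Mycn, Trp73, Cpxm1 and Selenbp1 among those higher, and Lef1, Ripply3, Parm1 and Slc1a3 among those lower.

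Pla2g7, at 38.7, 22.5 and 17.6 CPM in Sostdc1-high cells and 4.41, 2.90 and 1.72 CPM in placode cells, led this group (edgeR adjusted p = 4.38e-09). Sox9 (ENSMUSG00000000567.5, chromosome 11, 112782224 to 112787760, plus strand), a transcription factor of the future follicle stem cells, stood at 24, 58.7 and 69.8 CPM in Sostdc1-high cells, 19, 25.1 and 26.3 CPM in placode cells and 5.19, 24.4 and 37.3 CPM in other cells. In each library the Sostdc1-high cells had the highest Sox9 level of the 3 classes. In total epithelium, however, the 95% Poisson intervals of Sostdc1-high cells (19.9 to 28.7 CPM) and placode cells (13.7 to 25.5 CPM) overlapped. The differences were 1.24 ± 0.16 and 1.26 ± 0.17 (edgeR adjusted p = 0.000175). This call was lost without placode-enriched library 2 (edgeR adjusted p = 0.083) and with DESeq2 (adjusted p = 1). Cells with at least 8 Sostdc1 that the rule kept out held more Sox9. It stood at 65.5, 89.0 and 72.2 CPM with a placode sum of 2 to 4 (15, 68 and 50 cells). With a sum of at least 4 (6, 42 and 22 cells) it was at 63.1, 80.9 and 95.4 CPM. Over the differentiation limit (3, 7 and 7 cells) it was at 38.7, 83.2 and 198.6 CPM. After thinning to 5000 UMIs, a Sox9 UMI was seen in 11.2%, 23.4% and 24.5% of Sostdc1-high cells and in 2.43%, 35.7% and 25% of suprabasal cells (32.2%, 59.9% and 62.7%, and 17.0%, 57.1% and 66.7%, unthinned). In the gated libraries the share of Sostdc1-high cells with a UMI was thus not above that of suprabasal cells. Those were only 14 and 12 cells, with 95% exact binomial intervals of 12.8% to 64.9% and 5.49% to 57.2% after thinning. Whether suprabasal cells lack Sox9 was not tested.

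Trp73, a relative of the epidermal master regulator Trp63, stood at 16.7, 30.01 and 27.2 CPM in Sostdc1-high cells, 5.73, 14.1 and 13.7 CPM in placode cells and 4.74, 9.98 and 11.6 CPM in other cells (edgeR adjusted p = 8.91e-06). Mycn was at 38.3, 34 and 38.3 CPM, 18.5, 19.4 and 23.4 CPM and 8.30, 11 and 9.47 CPM (edgeR adjusted p = 4.78e-05), its Sostdc1-high sums lying above all others. Calm4, a calmodulin-like protein of the epidermis, stood at 39.9, 37.9 and 41.9 CPM, 10.1, 8.54 and 7.22 CPM and 15, 13.4 and 21.6 CPM, also without overlap among these 3 classes. After thinning to 5000 UMIs, a Calm4 UMI was seen in 13.7%, 13.7% and 13.2% of Sostdc1-high cells. The share was larger in suprabasal cells, at 21.1%, 50% and 25% (247, 14 and 12 cells). Cib2, a calcium- and integrin-binding protein, was at 36.5, 45.1 and 45.4 CPM against 19.4, 25.5 and 24.2 CPM and 16.2, 19.97 and 23.6 CPM. Abr, Cpxm1 (a secreted carboxypeptidase-like protein) and Selenbp1 (a selenium-binding protein) rose by 1.39 ± 0.12, 1.16 ± 0.12 and 1.27 ± 0.10 against placode cells and by 0.88 ± 0.12, 0.85 ± 0.11 and 0.77 ± 0.10 against other cells; with thinned cells the call for Abr was lost (edgeR adjusted p = 0.55). Col1a2, a collagen of fibroblasts, stood at 13.3, 24.9 and 23.3 CPM, 11, 10.04 and 10.4 CPM and 9.71, 6.16 and 8.42 CPM, and lost its call without placode-enriched library 1 (edgeR adjusted p = 0.0967) or 2 (edgeR adjusted p = 0.248). Its partner chain Col1a1 stood at 0.201, 0.386 and 0.121 CPM in Sostdc1-high cells, and the part of fibroblast RNA in the Col1a2 value was not tested.

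Among the 10 genes that stood apart on the low side, Ripply3 (edgeR adjusted p = 2.04e-07) and Lef1 kept their calls in all settings with the library block. Lef1, the nuclear partner of beta-catenin, stood at 114, 146 and 123 CPM in Sostdc1-high cells, 308, 314 and 291 CPM in placode cells and 214, 238 and 183 CPM in other cells (-1.27 ± 0.06 and -0.74 ± 0.06, edgeR adjusted p = 1.97e-07). Axin2, a Wnt target and feedback inhibitor, was at 14.7, 17 and 17 CPM, 25.6, 33.3 and 38.1 CPM and 24.5, 29.3 and 27.4 CPM (-1.07 ± 0.10 and -0.76 ± 0.10, edgeR adjusted p = 0.000163). For both genes every Sostdc1-high sum was below every sum of the other 2 classes; the Axin2 call was lost with thinned cells (edgeR adjusted p = 0.0782). Slc1a3, a glutamate transporter, stood at 32.2, 29.9 and 20.1 CPM against 126, 82.3 and 62.2 CPM and 56.7, 61 and 49.9 CPM. Parm1 (a mucin-like membrane protein) fell, with log2 differences of -1.96 ± 0.07 against placode cells and -0.82 ± 0.08 against other cells. Gadd45g (-2.74 ± 0.18 and -1.30 ± 0.21), Alcam (-1.98 ± 0.15 and -1.19 ± 0.17), Cldn6 (a claudin of tight junctions, -1.05 ± 0.11 and -0.98 ± 0.12), Cygb (cytoglobin, -1.85 ± 0.15 and -0.82 ± 0.17) and Fam129b (-0.81 ± 0.11 and -0.77 ± 0.11) were the others. Without placode-enriched library 2, the calls for Gadd45g, Alcam, Cldn6 and Cygb were lost (edgeR adjusted p = 0.144, 0.136, 0.0537 and 0.128). Those for Alcam and Cldn6 were also lost with cells with suprabasal genes left out (0.169 and 1). That for Cygb was also lost without placode-enriched library 1 (0.103), and that for Fam129b with thinned cells (0.24).

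**Figure D2:**
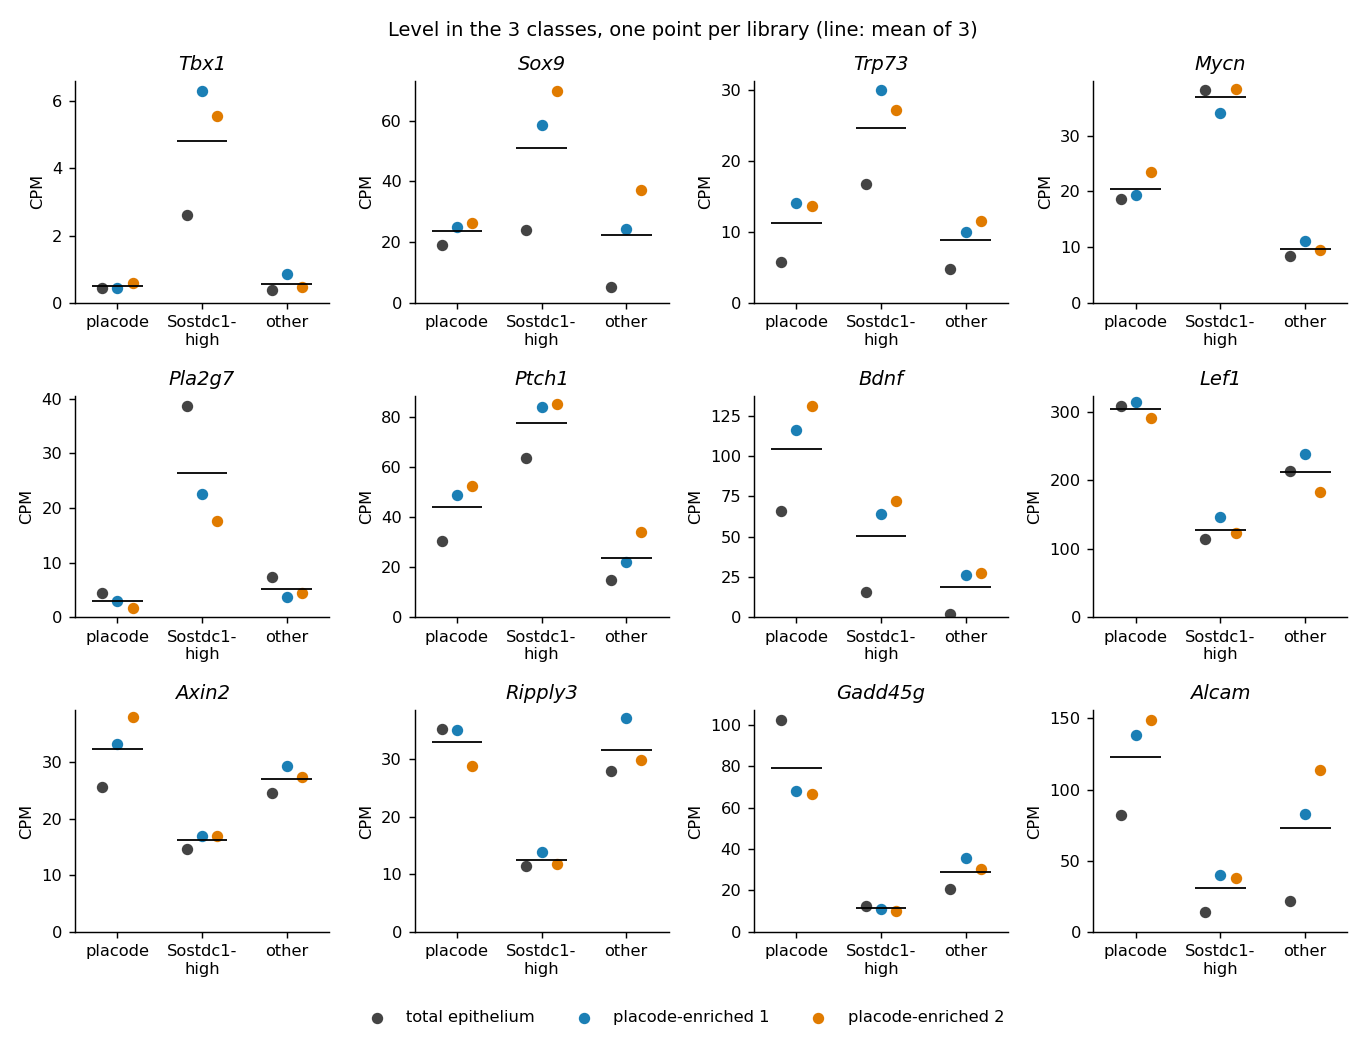
Each panel shows the level of 1 gene in CPM (UMIs per 1000000 UMIs of the class, linear axis from 0) in placode, Sostdc1-high and other cells, with 1 point per library and a line at the mean of 3. Tbx1, Trp73, Mycn, Pla2g7 and Ptch1 are highest and Lef1, Axin2, Ripply3 and Gadd45g lowest in the Sostdc1-high cells of each library, while Bdnf lies between the other 2 classes.

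Sostdc1 acts on the Wnt and Bmp pathways. Among Wnt genes, Sostdc1-high cells had more Wnt7b and less Lef1 and Axin2 than both other classes, and none of the listed Wnt receptors and transducers stood apart from both. Counts in the gene lists stand beside shares over all genes of 14.6% higher and 15.7% lower against placode cells, and 3.88% and 3.8% against other cells. Of 12 Wnt ligand and secretion genes tested, 7 were higher (58.3%) and 3 lower (25%) than in placode cells (median 0.53). Against other cells 2 were higher (16.7%) and 6 lower (50%, median -0.08, beside -0.01 over all genes in both comparisons). Wnt7b stood at 133, 102 and 84.3 CPM in Sostdc1-high cells, 33.1, 22.1 and 17.6 CPM in placode cells and 86, 65.2 and 60.3 CPM in other cells (2.17 ± 0.07 and 0.57 ± 0.06), highest in the Sostdc1-high cells of each library. Wnt6, the other ligand higher than in both classes, differed by 0.63 ± 0.04 and 0.19 ± 0.04. Wnt3a and Wnt4 were higher than in placode cells (2.36 ± 0.16 and 1.28 ± 0.05) and lower than in other cells (-0.36 ± 0.11 and -0.36 ± 0.04). Wnt10a, Wnt3 and Wnt16 were lower than in both, Wnt10a by -0.65 ± 0.08 and -0.73 ± 0.08 and Wnt3 by -0.78 ± 0.07 and -0.34 ± 0.07.

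Of 21 Wnt receptors and transducers tested, 5 were higher (23.8%) and 4 lower (19%) than in placode cells, and against other cells 1 (Fzd6, 4.76%) was lower and none higher, so the list lay near the share over all genes. Lrp4, a receptor that binds Sostdc1, stood at 22, 34.9 and 29.2 CPM in Sostdc1-high cells, 156, 187 and 163 CPM in placode cells and 24.5, 57.4 and 36.5 CPM in other cells. It was -2.55 ± 0.10 against placode cells (edgeR adjusted p = 5.42e-13) and -0.39 ± 0.13 against other cells (edgeR adjusted p = 0.0741), the latter passing the threshold only without the total epithelium library (-0.54, edgeR adjusted p = 4.51e-05) among the leave-1-out fits. The co-receptors Lrp5 (-0.07 ± 0.12 and -0.04 ± 0.12) and Lrp6 (-0.19 ± 0.09 and 0.19 ± 0.09) passed neither test.

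Feedback and target genes of the Wnt pathway were mostly lower than in placode cells, and fewer of them differed from other cells. Of 17 tested, 12 were lower (70.6%) and 2 higher than in placode cells (median -0.79), and 4 were lower (23.5%) and 1 higher than in other cells (median -0.20). The 4 were lower than in both classes, and beside Axin2 and Lef1 they were Kremen2, which removes Lrp6 from the surface together with Dkk proteins, and Tnfrsf19 (Troy), a Wnt-induced receptor. Kremen2 stood at 235, 269.7 and 254 CPM in Sostdc1-high cells, 491, 470.1 and 425 CPM in placode cells and 318, 345 and 302 CPM in other cells (-0.88 ± 0.04 and -0.36 ± 0.04). Tnfrsf19 differed by -0.55 ± 0.05 and -0.32 ± 0.05. Against placode cells alone, Nkd1 and Tcf7, an intracellular inhibitor and a nuclear factor of the pathway, fell, with log2 differences of -1.58 ± 0.30 and -1.54 ± 0.11.

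A binding sequence of the Tcf and Lef factors was searched in promoter windows from 250 bases before to 50 after each gene's start (RefSeq, GRCm38.p6). The letters CTTTGAT or, on the other strand, ATCAAAG occur in 3.73% of all 32851 windows. Counted per gene, 4.29% of 27025 genes have a window with the letters. Of the 17 Wnt feedback genes tested, 11 had windows and 2 of these, Sp5 and Tnfrsf19, held the letters. The window of Sp5 is shown because Sp5 had the deepest drop against placode cells among genes with a mean of at least 20 CPM in the higher class. It lies at chr2:70474673-70474972 on the plus strand, printed 5' to 3', and the capitals mark the single match, which begins at base 147. A match is a description of these letters only.
Sp5 promoter: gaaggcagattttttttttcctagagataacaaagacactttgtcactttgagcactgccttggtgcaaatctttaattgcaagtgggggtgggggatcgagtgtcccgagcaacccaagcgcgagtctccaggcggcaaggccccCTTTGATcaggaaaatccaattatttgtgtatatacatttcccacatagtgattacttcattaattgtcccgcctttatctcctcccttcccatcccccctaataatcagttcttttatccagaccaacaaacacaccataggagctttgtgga

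In the Bmp and Tgfb list, 9 of 31 tested genes were higher (29%) and 11 lower (35.5%) than in placode cells (median -0.10), and 4 were higher (12.9%) and 3 lower (9.68%) than in other cells (median 0.00). Among ligands, Bmp4 stood at 6.04, 6.95 and 6.77 CPM in Sostdc1-high cells, 3.97, 2.02 and 4.10 CPM in placode cells and 4.74, 3.19 and 5.11 CPM in other cells. Its difference was 1.03 ± 0.23 against placode cells (edgeR adjusted p = 0.00171; 0.114 without placode-enriched library 1) and 0.57 ± 0.22 against other cells (edgeR adjusted p = 0.144). Bmp7 was lower than in placode cells (-0.63 ± 0.05) and near the level of other cells (-0.09 ± 0.05). The antagonist Nog had 21 UMIs in the Sostdc1-high cells of all libraries and 0 in placode cells, at least 8.60-fold higher with the placode cells set to a floor of 3 counts over the group. The receptor genes Bmpr1a (-0.08 ± 0.07 and -0.06 ± 0.07) and Bmpr1b (0.42 ± 0.12 and -0.13 ± 0.11) differed little; that of Bmpr1b from placode cells passed the test (edgeR adjusted p = 0.00947) but not without placode-enriched library 1 (0.0936) or 2 (0.123).

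The Id genes, direct targets of Bmp signalling, did not move as 1 group. Id3 stood at 315, 397 and 360.3 CPM in Sostdc1-high cells, 222, 322 and 267 CPM in placode cells and 205, 297 and 279 CPM in other cells, highest in the Sostdc1-high cells of each library (0.38 ± 0.04 and 0.45 ± 0.04, edgeR adjusted p = 3.79e-05). Id1 was higher than in placode cells (1.25 ± 0.09) and not different from other cells by the test (0.14 ± 0.08, edgeR adjusted p = 0.374). Id2 was 0.47 ± 0.17 against placode cells and -0.56 ± 0.15 against other cells, and neither call held when 1 placode-enriched library was left out (edgeR adjusted p from 0.0575 to 0.476). Fstl1, a follistatin-like secreted protein, was higher than in both classes (0.64 ± 0.08 and 0.35 ± 0.08).

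Hedgehog readouts were higher in Sostdc1-high cells although these cells held almost no Shh transcript. Of 15 hedgehog genes tested, 6 were higher (40%) and 4 lower (26.7%) than in placode cells (median 0.23), and 6 were higher (40%) and 0 lower than in other cells (median 0.25). Ptch1, the receptor and a direct target of the pathway, stood at 63.7, 84.1 and 84.9 CPM in Sostdc1-high cells, 30.4, 48.9 and 52.3 CPM in placode cells and 14.7, 21.9 and 33.8 CPM in other cells (0.77 ± 0.09 and 1.72 ± 0.10, edgeR adjusted p = 3.86e-05). Gli1, a nuclear effector and target, was at 24, 26.9 and 32.4 CPM, 13.2, 21.2 and 23.3 CPM and 7.11, 13.2 and 13.8 CPM (0.45 ± 0.10 and 1.31 ± 0.12). Both genes were highest in the Sostdc1-high cells of each library. Gli2 (0.76 ± 0.12 and 0.64 ± 0.12) and Gas1 were the other members higher than in both classes.

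Several Fgf response genes lay between placode and other cells: Dusp6, Etv4, Etv5 and Spry2 were lower than in placode cells and higher than in other cells. Spry1, Spry4 and Spred1 were higher than in other cells and did not pass the test against placode cells. None of the 15 tested Fgf genes stood apart from both classes in 1 direction. Of them 3 were higher (20%) and 4 lower (26.7%) than in placode cells (median -0.06), and 8 were higher (53.3%) and 1 lower (6.67%) than in other cells (median 0.53). Dusp6, a phosphatase induced by Fgf signalling, stood at 174, 315 and 303 CPM in Sostdc1-high cells, 465, 611 and 586 CPM in placode cells and 43.3, 181 and 171 CPM in other cells (-1.10 ± 0.16 and 1.12 ± 0.18; with DESeq2 the adjusted p against other cells was 0.149). Etv4, a nuclear target, followed the same order with -0.96 ± 0.15 and 0.94 ± 0.19. The receptor gene Fgfr1 was at 11.5, 44.2 and 44.8 CPM, 19.4, 42.7 and 41 CPM and 6.08, 15.3 and 13.7 CPM, so that Sostdc1-high and placode cells overlapped and both were above the other cells of their own library (-0.02 ± 0.10 and 1.48 ± 0.13).

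Among Eda and NF-kB genes, 12 of 20 tested were lower (60%) than in placode cells and 1 higher (median -0.62), and 3 were lower (15%) and 1 higher than in other cells (median -0.11). Relb, an NF-kB subunit and target, stood at 7.86, 16.1 and 15.6 CPM in Sostdc1-high cells, 79, 78.6 and 73.1 CPM in placode cells and 16.2, 23.4 and 21.5 CPM in other cells (-2.47 ± 0.12 and -0.57 ± 0.15; the latter call was lost without placode-enriched library 1, edgeR adjusted p = 0.116, or 2, 0.129). Tnfaip3 (A20, an NF-kB feedback inhibitor) and Cxcl10 (a chemokine of the placode) fell against placode cells, with log2 differences of -2.88 ± 0.20 and -5.55 ± 0.37. Edaradd, the adaptor of Edar, was at 46.7, 62.2 and 59 CPM, near the 49, 59.3 and 57.4 CPM of placode cells (-0.00 ± 0.06) and above the 34.5, 40.8 and 41.8 CPM of other cells (0.49 ± 0.07). Fst, an activin and Bmp antagonist, was higher than in placode cells (1.12 ± 0.15) and lower than in other cells (-0.71 ± 0.12; edgeR adjusted p = 0.0692 without placode-enriched library 2).

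Of 15 Notch genes tested, 6 were higher (40%) and 5 lower (33.3%) than in placode cells, and 1 was higher (6.67%) and 5 lower (33.3%) than in other cells (median -0.14). Of those 5 drops, Notch3 is also a gene of differentiating layers, and 2 of 14 tested genes were lower when cells with suprabasal genes were left out, as were 2 of 15 without placode-enriched library 1 or 2. The receptor gene Notch1 stood at 38.9, 44.7 and 55.9 CPM in Sostdc1-high cells and 56.1, 91.6 and 115 CPM in other cells (-0.92 ± 0.08). The ligand gene Dll1 was higher than in placode cells (1.11 ± 0.19) and lower than in other cells (-0.69 ± 0.15; edgeR adjusted p = 0.0935 and 0.0733 without placode-enriched library 1 or 2). Lfng, a sugar transferase that tunes Notch receptors, was the member higher than in both (0.55 ± 0.07 and 0.56 ± 0.07). Among 47 neurotrophin and guidance genes, 9 were higher and 22 lower than in placode cells (median -0.38), and 8 were higher and 3 lower than in other cells (median 0.11). Sema6a, a membrane semaphorin, stood at 9.47, 16.5 and 17.3 CPM against 34.4, 62.5 and 69 CPM in placode cells and 13, 31.9 and 27.4 CPM in other cells, and with Robo1 and Efna5 it was lower than in both. Epha4, an ephrin receptor, was the member higher than in both (0.62 ± 0.15 and 0.61 ± 0.16).

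Genes of follicle periphery and stem cell precursors were mixed against placode cells and leaned higher against other cells. Of 21 tested, 9 were higher and 7 lower than in placode cells (median 0.04), and 7 were higher and 0 lower than in other cells (median 0.19). Higher than in both were Tbx1, Sox9 and Nfib, a nuclear factor of hair follicle stem cells, which stood at 361, 464 and 490.0 CPM in Sostdc1-high cells, 349.8, 372 and 411 CPM in placode cells and 290.0, 373 and 419.6 CPM in other cells (0.20 ± 0.04 and 0.27 ± 0.04). Krt17, a keratin of appendage buds, was at 333, 728 and 656 CPM, 733, 1066 and 920.4 CPM and 154, 713 and 650.4 CPM (-0.72 ± 0.18 against placode cells).

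**Figure D3:**
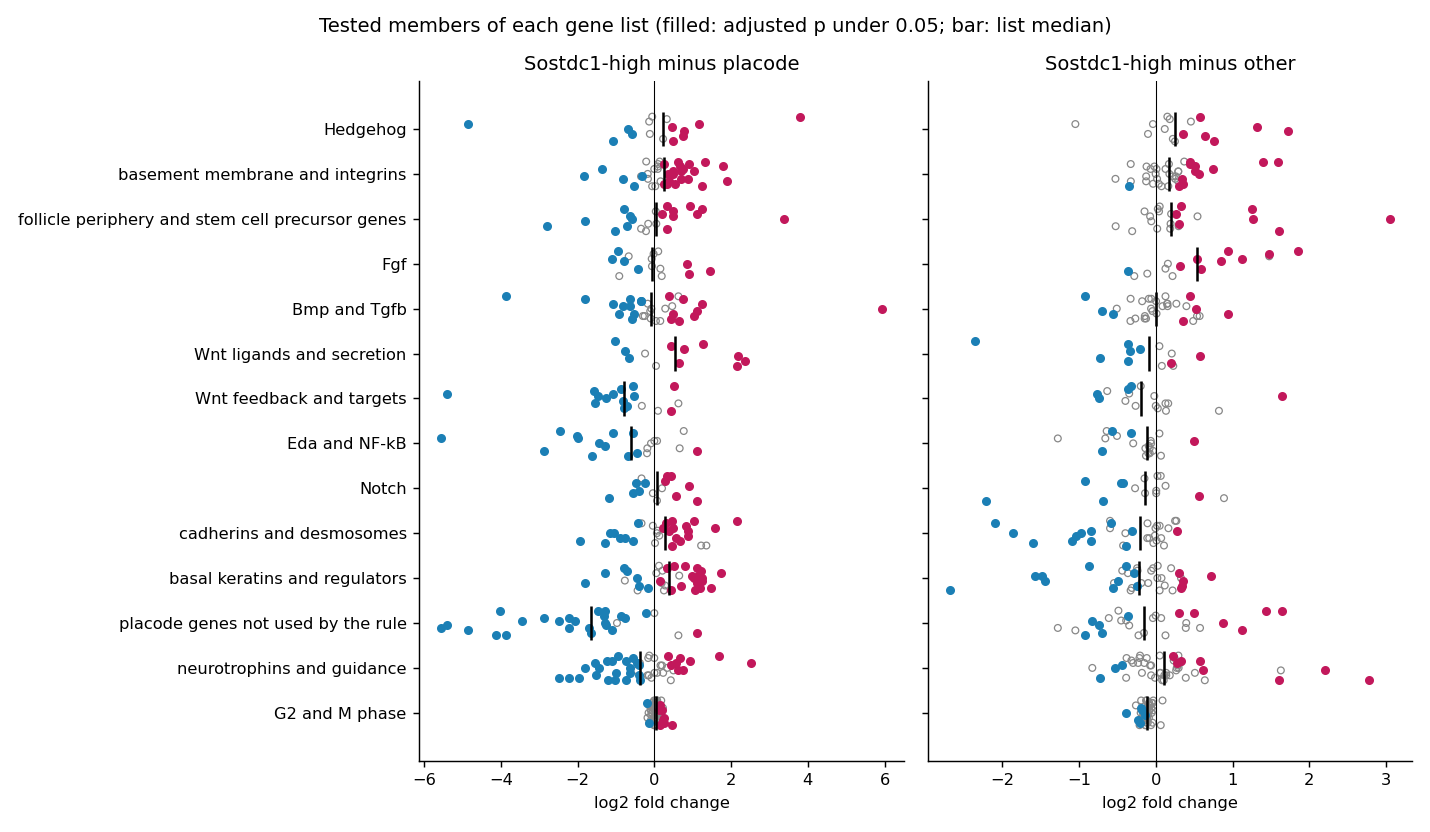
Each point is 1 tested gene of the list named at the left, with its log2 fold change against placode cells (left panel) and against other cells (right panel). Filled points had an adjusted p under 0.05, and bars mark list medians. The placode genes, the Wnt feedback genes and the Eda and NF-kB genes lie mostly left of 0 against placode cells (medians -1.65, -0.79 and -0.62), and the Fgf genes mostly right of 0 against other cells (median 0.53). Nog is drawn at its fitted value, which is no bound, and the median of its list is -0.10 with Nog at its floor too.

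Sostdc1-high cells had a basal epidermal keratin profile. Of 34 basal keratins and regulators tested, 18 were higher (52.9%) and 7 lower (20.6%) than in placode cells (median 0.38), and 5 were higher (14.7%) and 10 lower (29.4%) than in other cells (median -0.21). The 10 include Zfp750, Ovol1 and Grhl3, and 6 of 33 tested genes were lower when cells with suprabasal genes were left out (5 of 32 without placode-enriched library 2). Krt15, a basal and stem cell keratin, stood at 2075, 1034 and 882 CPM in Sostdc1-high cells, 690.3, 304 and 232 CPM in placode cells and 2445, 1230.3 and 1092 CPM in other cells (1.74 ± 0.04 and -0.28 ± 0.04). Krt5 and Krt14, the keratin pair of basal cells, were higher than in placode cells (1.12 ± 0.04 and 0.44 ± 0.03) and did not pass the test against other cells (-0.10 ± 0.04 and 0.05 ± 0.03).

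Several genes of the basement membrane were higher in Sostdc1-high cells than in both classes. Of 37 tested, 20 were higher and 5 lower than in placode cells (median 0.24, beside 14.6% higher over all genes). Of the same genes 11 were higher and 1 lower than in other cells (median 0.18, beside 3.88%), and 8 were higher than in both (beside 1.39%). The 8 became 1 without placode-enriched library 1, 1 without placode-enriched library 2, 0 of 32 with thinned cells, 2 with DESeq2 and 4 with cells with suprabasal genes left out. They include Tnc, a matrix glycoprotein, at 7.05, 4.77 and 3.62 CPM in Sostdc1-high cells, 0.882, 2.55 and 1.48 CPM in placode cells and 1.33, 2.12 and 1.80 CPM in other cells (1.32 ± 0.30 and 1.59 ± 0.31). The laminin chain gene Lamb3 (0.36 ± 0.08 and 0.57 ± 0.09), the integrin gene Itga3 (0.89 ± 0.09 and 0.45 ± 0.08), Hspg2 (perlecan, 0.49 ± 0.08 and 0.50 ± 0.09) and Col4a1 (0.61 ± 0.07 and 0.44 ± 0.07) were further members. Lamb3 stood at 35.9, 36.4 and 29.4 CPM, 26.9, 26.4 and 24 CPM and 23.3, 22.1 and 21.8 CPM, so its Sostdc1-high sums were above all others.

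Among 30 genes of cadherin junctions, desmosomes and tight junctions, 14 were higher (46.7%) and 8 lower (26.7%) than in placode cells (median 0.27), and 1 was higher (3.33%) and 11 lower (36.7%) than in other cells (median -0.21). With cells with suprabasal genes left out, 3 of 29 tested were lower than in other cells and 4 higher, and without placode-enriched library 1 or 2 the lower genes numbered 6 of 30 and 7 of 29. Lower than in both were Cldn7, Cldn6, Cldn4 and Pvrl3. These 4 became 2 without placode-enriched library 1, 0 without placode-enriched library 2 and 1 with cells with suprabasal genes left out. Cldn7 stood at 3.63, 6.83 and 6.65 CPM in Sostdc1-high cells, 10.6, 15.1 and 17.3 CPM in placode cells and 7.56, 22.9 and 21.8 CPM in other cells. Dsp, the desmosome linker desmoplakin, was higher than in both (0.38 ± 0.05 and 0.28 ± 0.05). Of 34 actomyosin and cytoskeleton genes, 9 were higher and 15 lower than in placode cells (median -0.10) and 4 were higher and 4 lower than in other cells (median -0.03). Of 19 imprinted and insulin-like growth factor genes, 11 were higher and 3 lower than in placode cells (median 0.31). The growth factor gene Igf2 among them stood at 117, 95.2 and 118 CPM, 39.3, 30.3 and 33.5 CPM and 107, 94.3 and 109 CPM (1.69 ± 0.06 against placode cells).

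Markers of other cell types were checked beside these results. Of 12 tested suprabasal genes that the rule did not use, 1 was higher and 1 lower than in placode cells, and 3 (Rhov, Notch3 and Dmkn) were lower than in other cells. The summed level of all 16 genes of this list that were measured was 1174, 575 and 568 CPM in Sostdc1-high cells, 1171, 424 and 383 CPM in placode cells and 1211, 651 and 672 CPM in other cells. The Schwann cell sum was 14.3, 18.2 and 20.2 CPM in Sostdc1-high cells and 34.2, 24.6 and 18.5 CPM in other cells. The erythroid and muscle sums were at most 1.80 CPM in Sostdc1-high cells, Pecam1 of endothelium at most 1.81 CPM and Sox2 of Merkel cells at most 1.16 CPM. The periderm sum, made up mostly of Sfn, which basal cells also express, was 833, 526 and 522 CPM, and Cd74, listed for immune cells, stood at 18.1, 60.9 and 52.6 CPM against 81.2, 130.2 and 121 CPM in placode cells. Of the fibroblast genes, Dcn and Postn stood at 427, 518 and 521 CPM and at 193, 238 and 190.8 CPM in Sostdc1-high cells, lower than in placode cells, while Col3a1 was at most 1.41 CPM and Mfap4 at most 0.129 CPM. The part of other cell types in the results above was not tested except where cells were left out. Of 18 stress and dissociation genes, 5 were higher and 6 lower than in placode cells and 0 higher and 3 lower than in other cells.

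Several S-phase genes were higher than in placode cells, beyond the share over all genes (14.6%), while the share of mitosis genes that were higher was near it. Of 44 S-phase genes, 17 were higher (38.6%) and 0 lower than in placode cells (median 0.13) and 3 were higher (6.82%) and 5 lower (11.4%) than in other cells (median -0.02). Of 50 genes of G2 and M phase, 8 were higher (16%) and 2 lower (4%) than in placode cells (median 0.03) and 0 were higher and 6 lower (12%, beside 3.8% over all genes) than in other cells (median -0.12). These 6 became 0 and 1 without placode-enriched library 1 or 2, 0 with thinned cells and 17 with cells with suprabasal genes left out. The median summed level of cell cycle genes per cell was 108, 101.5 and 109 UMIs per 10000 in Sostdc1-high cells, 98.0, 97.6 and 80.9 in placode cells and 112, 132 and 122 in other cells. Of 15 cell cycle inhibitors, 3 were higher (20%) and 6 lower (40%) than in placode cells (median 0.09). Against other cells 0 were higher and 3 lower (20%, median -0.07). Gadd45g, Cdkn1a and Btg1 were lower than in both classes (20%, beside 0.797% over all genes). Cdkn1a (p21) stood at 2.82, 3.73 and 2.05 CPM in Sostdc1-high cells, 15.4, 11.2 and 7.71 CPM in placode cells and 5.71, 6.16 and 4.96 CPM in other cells (-1.89 ± 0.20 and -0.93 ± 0.23; the latter call was lost without placode-enriched library 1, edgeR adjusted p = 0.0753, or 2, 0.198).

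Within the Sostdc1-high cells, those with more Sostdc1 had more transcript of several of the same genes and less of genes of mitosis. Each library was divided at the median Sostdc1 level of its members into an upper set (117, 171 and 160 cells) and a lower set (116, 171 and 159 cells), with median Sostdc1 levels of 16.03, 17.5 and 15.96 against 9.96, 10.1 and 9.95 per 10000. The upper set had 23 genes at a higher (0.221%) and 56 at a lower level (0.538%) among 10414 genes tested. Without placode-enriched library 1 the counts were 11 and 23, without placode-enriched library 2 they were 4 and 5, and without the total epithelium library they were 39 and 93. The upper set also had a lower depth, with medians of 19489, 21144 and 23193.5 UMIs against 21812.5, 22963 and 27712.

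Mycn stood at 47.7, 47 and 48.7 CPM in the upper set and 29.7, 22.1 and 28.9 CPM in the lower set, without overlap (0.84 ± 0.11, edgeR adjusted p = 0.000115), and kept its call with RLE scaling, with thinned cells and with each library left out in turn. DESeq2 gave it no adjusted p, and without the library block no gene was called. Bdnf was at 25.3, 74.1 and 88.3 CPM against 6.55, 54.6 and 57.6 CPM (0.63 ± 0.11, edgeR adjusted p = 0.00318), higher in the upper set of each library although the sets overlapped across libraries; its call was lost without placode-enriched library 2 (edgeR adjusted p = 0.482). S100a6 (a calcium-binding protein), Wif1, Rgs2 (a regulator of G-protein signalling), Ccnd1 (cyclin D1), Ptch1 and Dusp6 rose by 0.75 ± 0.13, 0.67 ± 0.12, 0.60 ± 0.14, 0.57 ± 0.10, 0.52 ± 0.08 and 0.47 ± 0.09, and each of these calls was lost without placode-enriched library 1 or 2. Tbx1, at 3.38, 8.38 and 7.40 CPM against 1.93, 4.43 and 3.90 CPM, was higher in the upper set of each library but did not pass the test (0.90 ± 0.28, edgeR adjusted p = 0.215), nor did Sox9 (0.37 ± 0.09, edgeR adjusted p = 0.0581).

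In the upper set 22 of the 50 genes of G2 and M phase were lower and 0 higher (beside 0.538% and 0.221% over all genes), and 0 of 44 S-phase genes differed in either direction. The 22 became 7 without placode-enriched library 1, 0 without placode-enriched library 2, 31 without total epithelium, 11 of 49 with thinned cells and 6 with DESeq2. Tpx2, a spindle assembly factor, stood at 75.5, 75.7 and 75.8 CPM in the upper set and 88.6, 103 and 121 CPM in the lower set (-0.49 ± 0.08, edgeR adjusted p = 0.000641; 0.379 without placode-enriched library 2). Aurka, a mitotic kinase, was at 59.1, 51.6 and 50.02 CPM against 72.1, 82.6 and 72.1 CPM (-0.52 ± 0.09; edgeR adjusted p = 0.157 and 0.151 without placode-enriched library 1 or 2). Both genes were lower in the upper set of every library. The median cell cycle sum was 99.6, 95.2 and 87.0 UMIs per 10000 in the upper set and 117, 115 and 127 in the lower set. Depth and cell cycle moved together with Sostdc1 here, and their part in the other differences between the sets was not tested.

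Over all cells with a placode sum under 2 and within the limit on differentiation genes, the levels of several of these genes differed across the range of Sostdc1 and not only at the limit of 8 that defines the class. From the lowest Sostdc1 bin (0 to 2 per 10000) to the highest (16 and above), Mycn went from 5.05, 10.1 and 6.89 CPM to 47.0, 54.2 and 52.5 CPM. Trp73 went from 2.87, 7.35 and 9.39 CPM to 25.2, 34.0 and 29.9 CPM, and Tbx1 from 0.136, 0.459 and 0.313 CPM to 2.61, 8.06 and 9.44 CPM. Over the same bins Lef1 went from 231, 246 and 199.7 CPM to 115, 115 and 97.1 CPM. Median depth went from 21798, 24832 and 26970 UMIs in the lowest bin to 18676, 19760 and 21970 in the highest, and its part was not tested. These values describe the range and carry no test, since the bins use the gene that chose the members.

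**Figure D4:**
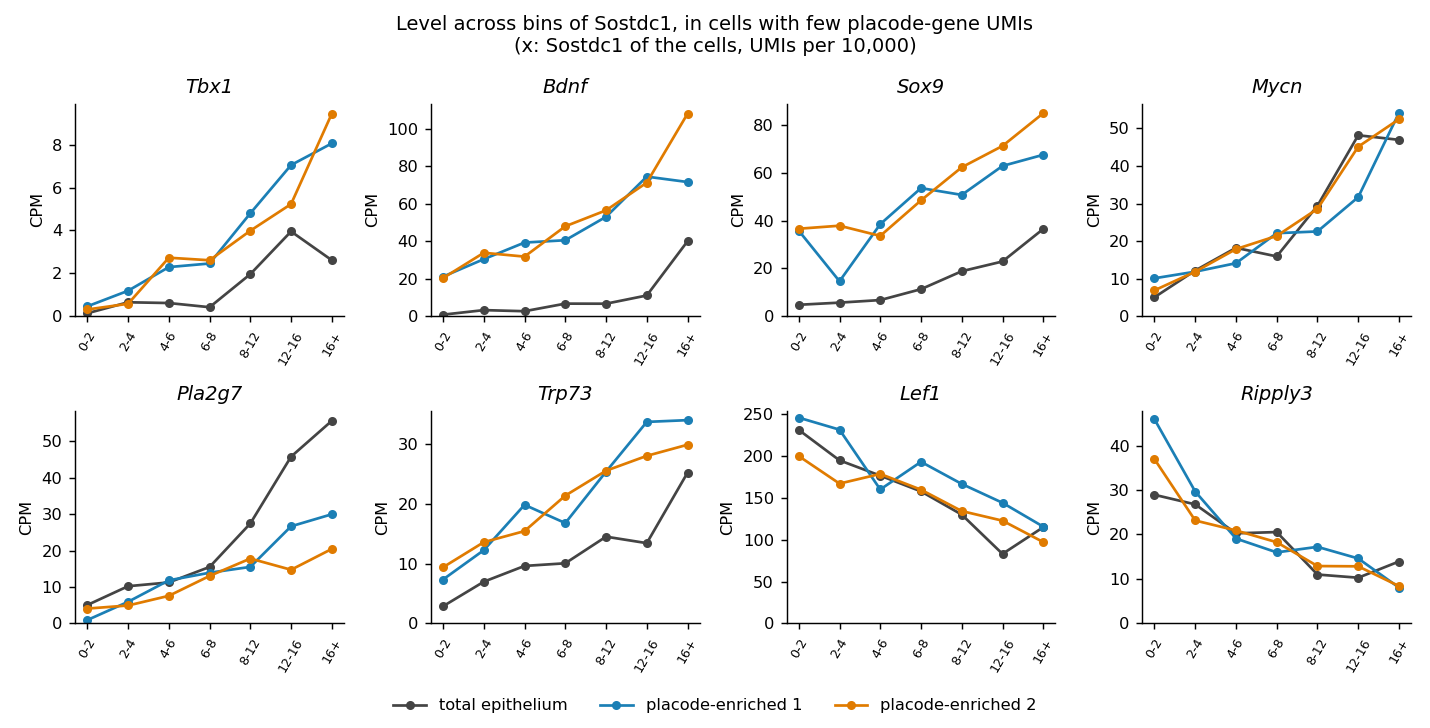
Panels give the level of 1 gene in CPM (linear axis from 0) in cells with a placode sum under 2 and within the limit on differentiation genes, by bin of the cells' own Sostdc1 level (UMIs per 10000, 7 bins), with 1 line per library. Mycn, Trp73, Pla2g7 and Tbx1 are higher and Lef1 and Ripply3 lower in the highest bin than in the lowest in all 3 libraries.

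Along the placode sum itself, over all cells within the limit on differentiation genes, Sox9 was highest in the placode-enriched libraries at a sum of 1 to 2, with 58.5 and 59.2 CPM, and stood at 11.4 and 15.4 CPM in cells with a sum of 16 or more. In the total epithelium library the order differed: Sox9 was at 10.2 CPM at a sum of 1 to 2 and was highest, at 22.4 CPM, in the bin of 16 or more. Krt15 was lower with each higher sum above 1, from 2416, 1361 and 1325 CPM in the lowest bin to 477, 280.0 and 193 CPM in the highest. Shh was at 77.3, 134 and 143 CPM in the highest bin. Bdnf reached 134 and 138 CPM at a sum of 4 to 8 in the placode-enriched libraries.

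**Figure D5:**
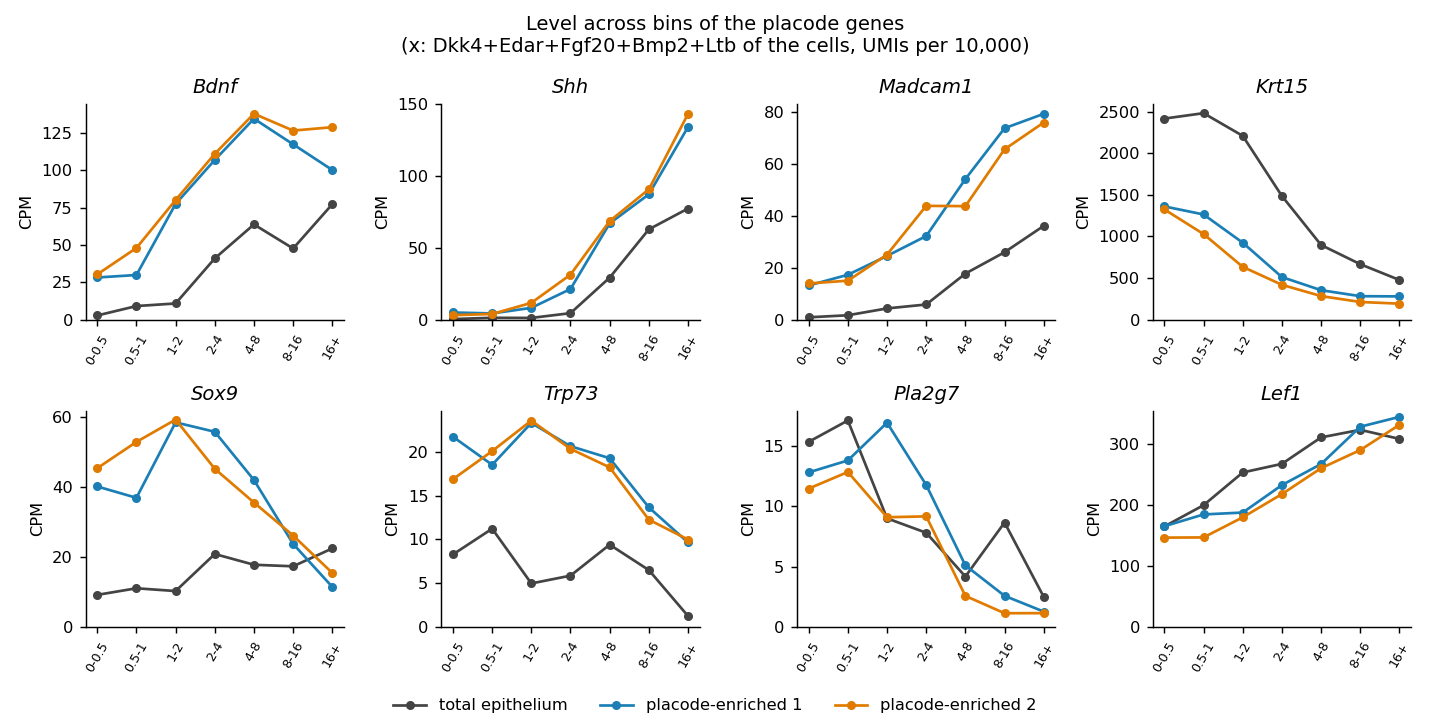
Panels give the level of 1 gene in CPM (linear axis from 0) by bin of the summed placode genes (UMIs per 10000, 7 bins) over all cells within the limit on differentiation genes, with 1 line per library. Shh is highest in the bins of high placode sum and Krt15 in those of low sum, while Sox9 in the placode-enriched libraries is highest at a sum of 1 to 2 (58.5 and 59.2 CPM).

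The difference between Sostdc1-high and other cells was also compared between the kinds of library. An edgeR interaction test found 39 genes (0.334%) with a more positive and 23 (0.197%) with a more negative difference in total epithelium. Among them Dusp6 stood at 174, 315 and 303 CPM in Sostdc1-high cells and 43.3, 181 and 171 CPM in other cells, so that the difference was largest in total epithelium, where other cells held least. Library kind, gate and the limit on differentiation genes cannot be told apart.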

How the data were processed

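The authors deposited raw UMI counts, whole numbers for each gene in each cell, as the values and, per the file headers, the layout show. Per the submitters' processing notes, the names Cell Ranger, Seurat and mm10 are on record, with no version or role. The filters on cells, use of strand and annotation are not given in the sources used here. A table of 14959 genes held total epithelium and another of 15900 genes held both placode-enriched libraries. Work was limited to 14656 genes present in both, which left out 0.00685% and 0.0142% of UMIs. Barcode suffixes in the second table served as library numbers, so a swap would only exchange the names of the 2 placode-enriched libraries. All columns belonged to these libraries. Each cell had at least 5344 UMIs.

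UMIs were summed per library and class, since cells are not replicates, which gave 9 sums with 4964234 to 8275810 UMIs in those of Sostdc1-high cells. Differences were tested by quasi-likelihood in edgeR 4.0.16 under R 4.3.3 (TMM, filterByExpr), with the library as a block because the 3 classes of a library come from the same pool of littermates. This left 4 residual degrees of freedom, and 2 for the upper and lower sets. The 9 genes of the rule were not tested. P-values had a Benjamini-Hochberg adjustment over all genes tested (threshold 0.05). With the library as a block, they measure the spread of the class differences over 3 pools, not the spread in level between pools. DESeq2 1.42.0 was an alternative. The procedure was tested on simulated data. Doublets were sought with scrublet (scanpy 1.11.5, expected rate 0.05). It marked 11, 4 and 4 cells, a low number for droplet data, and doublets may be left. No cell was removed, and leaving the marked cells out, or all cells over 1.5 times the median UMIs, were alternatives.

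The other alternatives were RLE scaling, no filter on low counts, no library block, fewer sums, each library left out in turn, cells thinned to 5000 UMIs, other limits on Sostdc1, the placode sum and the differentiation sum, and cells under the median of cell cycle genes. Leaving out cells with melanoblast or suprabasal genes was chosen after seeing the data. Genes named were the 10 with the largest rise and the 10 with the deepest drop among those past the threshold, moving the same way in all 3 libraries, with a mean of at least 20 CPM in the higher class (8 and 8 for the upper and lower sets), and up to 4 genes per list and comparison. Gene models named Gm or ending in Rik were left out. Of 196 such genes, 194 were found in the GENCODE annotation of GRCm38. Wnt6, Wnt3, Fstl1, Nfib, Epha4, Robo1, Efna5, Itga3, Hspg2, Col4a1, Krt5, Krt14, Krt17, Dsp and Madcam1 were named after their values were seen. Some genes that the rule takes in are not reported here. The members and all gene lists were chosen with earlier results of these data known.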

Additional observations from a re-analysis of the deposited data

Results flagged for a closer look

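Of 109 genes looked at, 13 had a difference between Sostdc1-high and other cells that was not the same in the total epithelium library and in the placode-enriched libraries, by an edgeR interaction test over all 11667 genes. In that test 39 genes had a more positive (0.334%) and 23 a more negative (0.197%) difference in the total epithelium library. The gate and the limit on differentiation genes differ between the same libraries and cannot be told apart, and the spread of the single total epithelium library was taken to be that of the others. Values below are the log2 difference in total epithelium minus that in the placode-enriched libraries.

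For 5 genes that were higher in Sostdc1-high than in other cells, the rise was larger in the total epithelium library. The values were 1.63 for Bdnf, 1.20 for Ncam1, 1.19 for Dusp6, 1.16 for Sox9 and 1.12 for Etv4. In Bdnf, the log2 ratio of CPM was 3.01 in total epithelium and 1.29 and 1.4 in the placode-enriched libraries, and other cells stood at 1.93, 26.1 and 27.4 CPM. In Dusp6 the ratios were 2.01, 0.80 and 0.82, and in Sox9 they were 2.21, 1.27 and 0.91. Both the other cells and the Sostdc1-high cells of the placode-enriched libraries held more of these 5 transcripts than those of total epithelium. Bdnf, for example, stood at 15.5, 63.9 and 72.1 CPM in Sostdc1-high cells. For Col1a2 the rise was smaller in total epithelium, with a value of -1.24 and ratios of 0.45, 2.01 and 1.47.

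Genes of differentiation and its junctions were lower in Sostdc1-high than in other cells of the placode-enriched libraries, and less so in total epithelium. The values were 2.99 for Rhov, 2.45 for Zfp750, 1.71 for Ovol1, 1.70 for Pvrl4, 1.29 for Grhl3, 0.51 for Dmkn and 0.34 for Sfn. For Zfp750 the log2 ratios were -0.99, -3.67 and -3.30, with 14.4, 29.5 and 33.4 CPM in other cells. The cells with suprabasal transcripts that pass the limits were not evenly spread: 64 of 578, 34 of 177 and 44 of 249 other cells held at least 2 UMIs of Zfp750, Notch3 and Rhov, against 11, 1 and 6 Sostdc1-high cells. Zfp750 and Rhov are themselves flagged above, so for them this count restates the difference. The part of such cells in the other values was not tested.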

How the results depend on the processing

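Against placode cells, 1705 genes were higher and 1831 lower. The counts were 916 and 966 with DESeq2, 714 and 698 with thinned cells, 1001 and 1016 in cells under the median of cell cycle genes, 462 and 467 without the library as replicate block, and 896 to 1893 and 1067 to 2042 with 1 library left out. Against other cells (453 and 443) they were 200 and 173, 134 and 126, 221 and 170, 5 and 5, and 203 to 526 and 151 to 551 under the same settings, and 293 lower with a placode sum under 1. For genes apart from both classes (162 and 93) they were 67 and 48, 42 and 24, 74 and 40, and 41 to 186 and 22 to 138. Without the replicate block 0 and 1 remained (177 higher at an unadjusted p under 0.05), and with a placode sum under 1 there were 97 and 56. For the upper and lower sets (23 and 56) the counts were 2 and 16 with DESeq2, 5 and 19 with thinned cells, 0 and 0 without the replicate block (77 and 90 at an unadjusted p under 0.05 by edgeR), and 4 to 39 and 5 to 93 with 1 library left out. For the difference between kinds of library (39 and 23) they were 65 higher with RLE, 10 and 2 with DESeq2 and 19 higher with a differentiation sum under 5. The classes of a library come from the same pool, so the block is part of the design. Thinning, the cycle subset and a left-out library use fewer UMIs or samples; the cause of the other shifts was not tested.

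The share of Sostdc1-high cells (14.6%, 22.6% and 20.3%) moves with its limits. It was 21.0%, 28.7% and 24.8% at a Sostdc1 limit of 6, 7.43%, 12.8% and 10.4% at 12, 13.4% and 15.2% in the placode-enriched libraries with a placode sum under 1, and 3.00% in total epithelium with a differentiation sum under 5.

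Reversed values were few and near 0. Against other cells, Grhl3, Rhov and Sfn stood at 0.12, 0.012 and 0.16 without cells with suprabasal genes (Rhov is one of the genes that chose those cells), and Ets1 and Pmel at 0.14 and 0.27 without cells with melanoblast genes. Hmmr stood at 0.023 without cells of high UMI number, Bmp7 at 0.11 and Bmpr1a at 0.13 with thinned cells, Bmpr1a at 0.11 in the cycle subset, and Bmpr1b at 0.015 and Id1 at -0.034 without total epithelium (their ranges with 1 library left out were -0.21 to 0.015 and -0.034 to 0.23). Lrp5 stood at 0.033 and 0.0047 without placode-enriched library 1 or 2 (-0.14 without total epithelium), 0.000408 and 0.0075 at Sostdc1 limits of 6 and 12, 0.0046 with other cells under 8, 0.068 without high UMI cells and 0.081 in the cycle subset. Against placode cells, Cdc20 stood at -0.018 at a Sostdc1 limit of 12 and -0.060 in the cycle subset, Lrp5 at -0.11 to 0.0028 with 1 library left out and 0.093 with thinned cells, and Bmpr1a at 0.15 with thinned cells. The cause was not tested. Of the values recomputed for the genes named as apart from both classes, 320 of 360 kept both their sign and their side of the threshold. For the upper and lower sets 41 of 97 did, against other cells 1547 of 1862 and against placode cells 2052 of 2178. Reversed values, 18 against other cells and 5 against placode cells, were not counted as kept. Depth limits genes such as Tbx1, with 13 UMIs in the smallest group.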
